A study of Mus musculus with 21 samples.

Results

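Lyz1 and Lyz2 are the paired lysozyme genes of the mouse, and they were followed across RNA sequencing libraries of RAW264.7, a macrophage-like cell line of the mouse, and of mouse liver. They were taken by gene symbol, 2 of the 35550 genes listed for the cell line, and were chosen by the near loss of Lyz1 TPM in the vimentin-knockout line. Lyz2 is also 1 of the 5298 genes listed for liver, where Lyz1 was not analysed here. That choice rests on the 12 h difference between Vim-KO and WT cells, which is therefore given below as a description without a test. The responses to LPS and CTM within a genotype, the chromosomal neighbours and the liver values were not used in the choice.

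Lysozyme is a secreted enzyme that cuts peptidoglycan, the sugar polymer of bacterial cell walls, between its alternating sugars. Mice carry a tandem duplication of the gene. Lyz2, often called M lysozyme, is the form of macrophages and neutrophils, and a widely used mouse strain carries Cre in this locus to delete genes in myeloid cells. Lyz1, often called P lysozyme, is best known from Paneth cells of the small intestine. Peptidoglycan fragments that lysozyme releases are sensed inside cells by Nod1 and Nod2.

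The 12 h cell line experiment held Vim-KO cells with LPS, Vim-KO cells with PBS, WT cells with LPS and WT cells with PBS. The 24 h experiment held WT cells with LPS plus CTM, with LPS alone and with PBS alone. Each cell line group had 2 libraries. LPS, the outer membrane lipopolysaccharide of Gram-negative bacteria, was given at 1 µg/mL and CTM, named here as the labels give it, at 0.5 mM. No group had CTM alone, and no Vim-KO group was made at 24 h. The livers came from C57BL/6J mice, with 1 library per group. They were WT mice with LPS plus CTM, with LPS and with PBS, WT mice with LPS after macrophage depletion or without it, and TG2-KO mice with LPS and with PBS. Doses in mice were 30 mg/kg of LPS and 100 mg/kg of CTM, but no LPS dose is given for the depletion pair. The labels give neither the age of the mice, nor how either knockout was made, nor whether the Vim-KO line is 1 clone, nor the agent used for depletion. Nor do they state that paired libraries of a cell line group are separate cultures, and p-values may therefore reflect technical spread alone.

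Values are TPM, a transcript abundance that is corrected for transcript length and sums to a fixed total in each library. TPM hold no read counts, so the depth behind each value is unknown. The targeted gene followed its labels: Vim ranged over 17.0 to 33.0 TPM across the 4 Vim-KO libraries, against 1375 to 1930 TPM across the 4 WT libraries of 12 h. Of 18 macrophage markers, 16 reached a mean of 1 TPM in every cell line group. The Paneth cell markers Defa17, Defa24, Ang4 and Mmp7 were at 0 in all 14 cell line libraries, as were the epithelial genes Epcam and Cdx2. The 9 markers of Paneth cells and intestinal epithelium summed to 7.08 to 7.75 TPM in Vim-KO cells with PBS and 0.157 to 0.200 TPM in WT cells with PBS. Itln1, the gene of an intestinal lectin, made up nearly all of this sum in the Vim-KO libraries, at 7.38 ± 0.43 TPM in Vim-KO cells and 0.086 ± 0.12 TPM in WT cells (SD, n = 2 each). The part of these genes in the lysozyme values was not tested. The 8 other genes of the lysozyme family were near or at 0. Lyzl4 reached at most 0.51 TPM in a library, and the other 7, among them Lyzl1, Lyzl6 and the goose-type genes Lyg1 and Lyg2, were listed at 0 throughout.

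The paralogs lie next to each other on chromosome 10 of GRCm38, both on the minus strand. In the GENCODE M21 annotation Lyz2 (ENSMUSG00000069516) spans chr10:117277331-117282321 and Lyz1 (ENSMUSG00000069515) spans chr10:117287797-117292868, with 5475 bases between them. Each has 4 exons. The coding sequences, without the stop codon, are 444 bases long, align without a gap and differ at 22 bases, which leaves 95.0% identical. The first 222 bases are printed to show how close the genes are, since 17 of the 22 differences lie there. They are read 5′ to 3′ from the GENCODE M21 transcripts, with capitals at the bases that differ, and lie within chr10:117291108-117292838 (Lyz1) and chr10:117280720-117282242 (Lyz2), introns left out.
Lyz1 coding: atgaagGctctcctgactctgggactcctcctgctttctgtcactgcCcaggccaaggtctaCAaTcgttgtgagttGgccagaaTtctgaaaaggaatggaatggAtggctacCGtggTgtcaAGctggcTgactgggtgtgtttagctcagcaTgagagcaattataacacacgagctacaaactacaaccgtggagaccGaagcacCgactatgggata
Lyz2 coding: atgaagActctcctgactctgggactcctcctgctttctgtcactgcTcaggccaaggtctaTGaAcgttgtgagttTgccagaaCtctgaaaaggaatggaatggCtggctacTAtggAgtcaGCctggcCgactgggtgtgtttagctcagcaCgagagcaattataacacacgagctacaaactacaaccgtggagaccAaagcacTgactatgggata

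The upstream sequences are shown because only Lyz1 is nearly lost in the knockout line while its neighbour of near-identical coding sequence is not. The window runs from 250 to 51 bases before the RefSeq transcript start, on GRCm38.p6, at chr10:117292919-117293118 for Lyz1 and chr10:117282323-117282522 for Lyz2, both read on the minus strand. Of 198 aligned bases 150 are identical, or 75.8%, and 4 further bases have no partner. Capitals again mark bases that differ or have no partner.
Lyz1 upstream: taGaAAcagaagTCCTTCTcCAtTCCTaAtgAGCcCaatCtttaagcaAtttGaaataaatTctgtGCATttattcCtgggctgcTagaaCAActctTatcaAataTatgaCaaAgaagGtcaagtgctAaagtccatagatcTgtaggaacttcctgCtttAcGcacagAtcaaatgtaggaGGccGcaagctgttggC
Lyz2 upstream: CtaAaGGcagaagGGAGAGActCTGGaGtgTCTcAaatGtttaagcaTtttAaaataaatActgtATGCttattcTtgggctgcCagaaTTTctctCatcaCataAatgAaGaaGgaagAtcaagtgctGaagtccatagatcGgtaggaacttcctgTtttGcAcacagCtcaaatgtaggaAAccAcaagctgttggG

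The short motifs AGGAAGT, TTNCNNAA and TGANTCA were searched on both strands of this window. AGGAAGT, a core bound by PU.1 and other ETS factors that drive myeloid genes, matched once in each paralog, at position -100 from the start, and matches in 5.66% of 32851 promoter windows of the same length. TTNCNNAA, a C/EBP core, matched once in Lyz1 at position -209 and not in the Lyz2 window, and it matches in 32.3% of promoters. TGANTCA, an AP-1 site, matched in neither window and matches in 5.57% of promoters. The matches do not overlap, and a match here is a run of letters, not a measured binding site.

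How much of the whole transcripts is shared bears on how reads are assigned to a paralog. The parts outside the coding sequence were not compared on their own. The Lyz1 transcript has 1263 bases and the Lyz2 transcript 1316. They share 422 words of 31 bases, 34.2% of those of Lyz1 and 32.8% of those of Lyz2. Of words of 100 bases they share 24, or 2.06% of those of Lyz1 and 1.97% of those of Lyz2. Reads from shared stretches can be divided between the paralogs in more than 1 way, so their separate TPM are less certain than their sum.

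In WT cells lysozyme was among the most abundant transcripts of the line. Lyz2 ranked first of all genes in both WT libraries with PBS at 12 h, and from 4 to 9 in the other 12 cell line libraries. Lyz1 ranked from 13 to 21 in the 6 libraries at 24 h and in the WT libraries with PBS at 12 h. It ranked 104 and 96 in the WT libraries with LPS at 12 h, and between 6627 and 7158 in the 4 Vim-KO libraries. Together the paralogs took up between 0.55% and 1.66% of all TPM of a library.

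Vim-KO cells had almost no Lyz1 and less Lyz2 than WT cells at rest. With PBS, Lyz1 stood at 18.3 and 15.6 TPM in the Vim-KO libraries, against 3126 and 3191 TPM in the WT libraries. With LPS it stood at 12.18 and 12.22 TPM in the Vim-KO libraries, against 1496 and 1505 TPM in the WT libraries. Every Vim-KO library lay far below every WT library of the same treatment. How many of all genes separate in this way was not counted. By the limma test, a different measure, 43.0% of all genes passed with PBS and 44.7% with LPS. The mean was 16.96 ± 1.86 TPM in Vim-KO cells with PBS, or 0.537% of 3159 ± 45.6 TPM in WT cells with PBS (SD, n = 2 each). It was 12.2 ± 0.024 TPM in Vim-KO cells with LPS, or 0.813% of 1501 ± 6.10 TPM in WT cells with LPS (SD, n = 2 each). Lyz1 was therefore 186-fold lower with PBS and 123-fold lower with LPS, a difference of -7.46 and of -6.83 in log2(TPM + 1).

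Lyz2 differed far less between the genotypes. With PBS it stood at 5704 and 5485 TPM in the Vim-KO libraries, against 13323 and 13402 TPM in the WT libraries. With LPS it stood at 6842 and 6855 TPM in the Vim-KO libraries, against 7690 and 7993 TPM in the WT libraries. The genotypes did not overlap in either treatment, but with LPS they lay close together. In these contrasts 43.0% of all genes passed the test with PBS and 44.7% with LPS. Lyz2 in Vim-KO cells was 41.9% of the WT level with PBS and 87.3% with LPS, a difference of -1.26 and of -0.20 in log2(TPM + 1). The summed TPM of both paralogs in Vim-KO cells was 34.0% of that in WT cells with PBS and 73.4% with LPS.

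**Figure D1:**
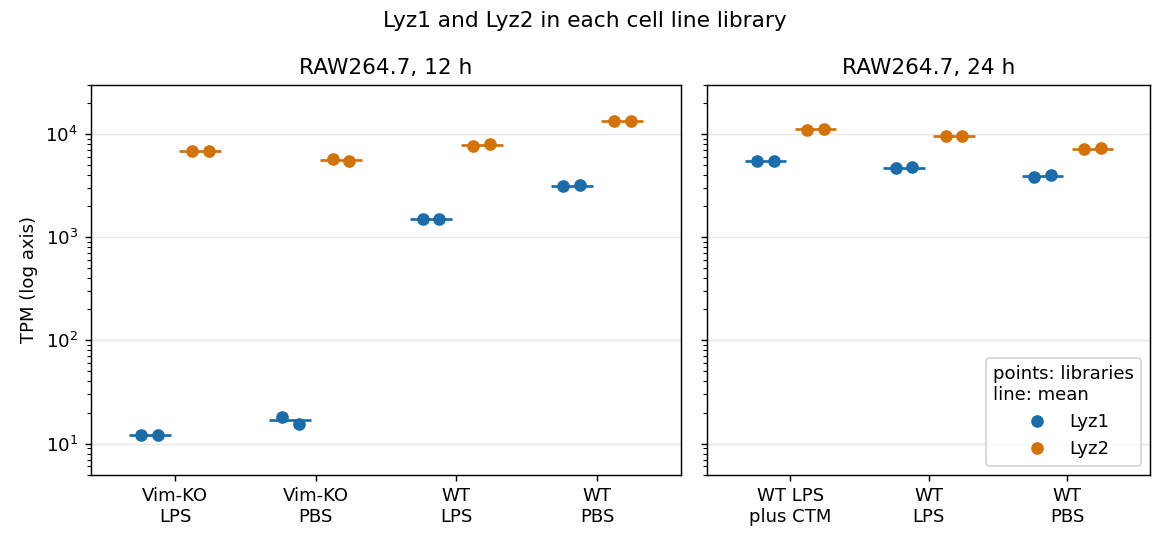
TPM of Lyz1 (blue) and Lyz2 (orange) on a log axis in each of the 14 cell line libraries, by group at 12 h (left) and 24 h (right), with points for libraries and a line at the mean of each group (n = 2). Lyz1 does not exceed 18.3 TPM in any Vim-KO library and lies at 1496 TPM or above in all WT libraries, whereas Lyz2 is at 5485 TPM or above in every library.

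The place of the paralogs among all genes describes how unequal this was. Among the 11115 genes tested at 12 h, ordered by their Vim-KO minus WT difference with PBS, Lyz1 was second from the lowest, below all but Cd36, a scavenger receptor for fatty acids and modified lipoproteins. With LPS it held place 4 from the lowest, after Cd36, Serpinb2 and Il1rn. Lyz2 held place 521 from the lowest with PBS and place 3206 with LPS. Since this contrast chose the pair, nothing is read from its place in it.

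Lyz1 remained detectable in every Vim-KO library, at a level that was a small share of Lyz2. There were 0.32 and 0.29 Lyz1 TPM for each 100 Lyz2 TPM in the Vim-KO libraries with PBS, and 0.178 in each of the Vim-KO libraries with LPS. In WT cells at 12 h there were 19.5 and 18.8 with LPS and 23.5 and 23.8 with PBS. Whether the remaining Lyz1 TPM come from Lyz1 transcripts or from Lyz2 reads in shared stretches was not tested.

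The share of Lyz1 in the summed TPM of the pair does not depend on scaling between libraries. It was 0.178% in both Vim-KO libraries with LPS, against 0.319% and 0.284% in the Vim-KO libraries with PBS. In WT cells at 12 h it was 16.3% and 15.8% with LPS, against 19.0% and 19.2% with PBS. At 24 h it was 32.92% and 32.95% with LPS plus CTM, 32.4% and 33.2% with LPS, and 35.1% and 35.5% with PBS. So the share was lower with LPS than with PBS in all 3 settings, without overlap, by 0.12 percentage points in Vim-KO cells, 3.05 points in WT cells at 12 h and 2.52 points at 24 h. An exact two-sided permutation test of 2 libraries against 2 gave p = 0.333 for each of these, the smallest p this design allows, and 0.417 after Benjamini-Hochberg adjustment over the 5 share contrasts. LPS plus CTM against PBS gave the same p for a share lower by 2.39 points. The share with LPS plus CTM overlapped that with LPS alone, 0.13 points apart (exact permutation p = 1). Resting WT cells had a Lyz1 share of 35.3% ± 0.28 in the 24 h experiment and 19.1% ± 0.16 in the 12 h experiment (SD, n = 2 each). These experiments were extracted on separate dates and were not tested against each other.

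**Figure D2:**
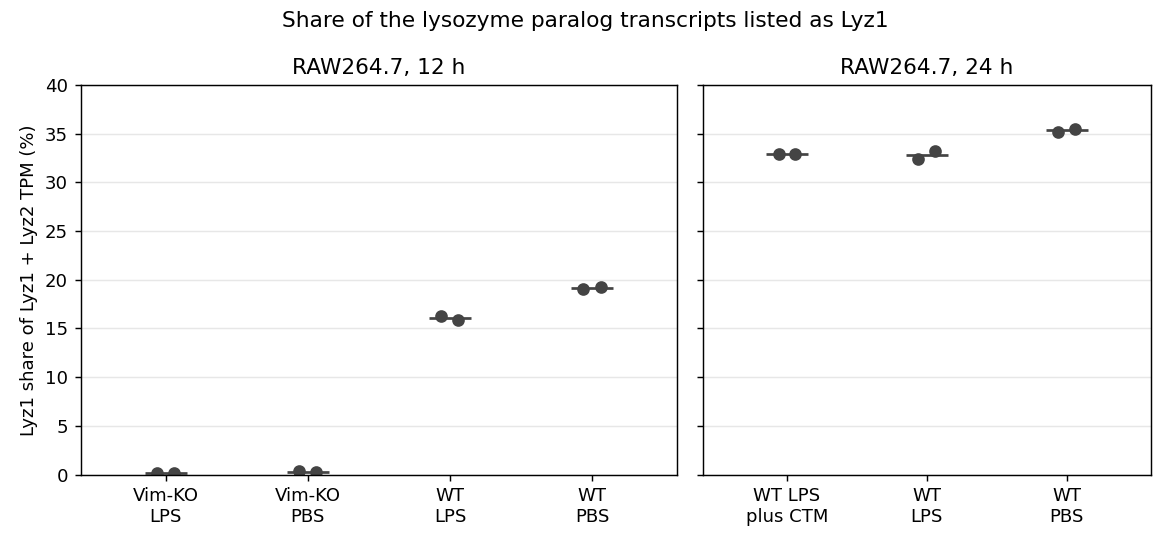
Lyz1 as a percentage of the summed Lyz1 and Lyz2 TPM in each cell line library, by group at 12 h (left) and 24 h (right), with points for libraries and a line at the mean (n = 2). The Vim-KO libraries lie between 0.178% and 0.319%, WT libraries at 12 h between 15.8% and 19.2%, and WT libraries at 24 h between 32.4% and 35.5%.

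Both paralogs were lower with LPS than with PBS in WT cells at 12 h. Lyz1 stood at 1496 and 1505 TPM with LPS, against 3126 and 3191 TPM with PBS. Lyz2 stood at 7690 and 7993 TPM with LPS, against 13323 and 13402 TPM with PBS. Neither paralog overlapped between the treatments, and Lyz1 kept 47.5% and Lyz2 58.7% of its level with PBS. Lyz1 fell by 1.07 ± 0.074 on the log2 scale (SE; adjusted p = 6.14e-06, limma) and Lyz2 fell by 0.77 ± 0.059 (SE; adjusted p = 1.08e-05, limma). LPS moved most of the transcriptome here: 53.1% of genes passed the test as lower and 17.8% as higher, 70.9% in all, and the median gene was at -0.35. TPM are shares of a library, and median-of-ratios scaling, which sets the median gene near 0, left Lyz1 at -0.70 and Lyz2 at -0.39, both still past the threshold. After it 3640 genes passed as higher and 3591 as lower, beside 1983 and 5898 as listed.

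In Vim-KO cells the paralogs moved in opposite directions with LPS. Lyz1 stood at 12.18 and 12.22 TPM with LPS, against 18.3 and 15.6 TPM with PBS, and fell by 0.44 ± 0.074 on the log2 scale (SE; adjusted p = 1.02e-03, limma). Lyz2 stood at 6842 and 6855 TPM with LPS, against 5704 and 5485 TPM with PBS, and rose by 0.29 ± 0.059 (SE; adjusted p = 2.70e-03, limma). The treatments did not overlap for either gene. Of all genes 66.4% passed the test in this contrast, 20.5% as higher and 45.8% as lower, with a median of -0.23. With median-of-ratios scaling Lyz1 was at -0.20 (limma adjusted p = 0.039) and Lyz2 at 0.55, among 3592 genes higher and 3542 lower, beside 2283 and 5093 as listed. The Lyz2 call ended when genes of low level were not filtered out (limma adjusted p = 0.067).

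By a limma test the LPS response differed between the genotypes for both paralogs. This test uses the same 12 h Vim-KO and WT values that chose the pair, so its p-values are not independent of that choice. For Lyz1 it also rests on the few TPM left in Vim-KO cells, whose origin was not tested. The LPS change in Vim-KO cells minus that in WT cells was 0.63 ± 0.10 for Lyz1 (SE; adjusted p = 5.28e-03, limma) and 1.06 ± 0.083 for Lyz2 (SE; adjusted p = 1.41e-04, limma). That difference passed the test for 20.6% of all genes, 13.7% with a positive and 6.96% with a negative sign, and its median was 0.086. After median-of-ratios scaling it was 0.50 for Lyz1 and 0.95 for Lyz2, among 1124 genes with a positive and 1232 with a negative sign, beside 1518 and 774 as listed. Lyz2 thus fell with LPS in WT cells and rose with LPS in Vim-KO cells, while Lyz1 fell in both, from a level in Vim-KO cells where a few TPM separate the treatments.

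At 24 h WT cells with LPS had more of both paralogs than with PBS. Lyz1 stood at 4647 and 4818 TPM with LPS, against 3851 and 4034 TPM with PBS. Lyz2 stood at 9682 and 9701 TPM with LPS, against 7112 and 7320 TPM with PBS. Neither gene overlapped between the treatments. Lyz1 rose by 0.26 ± 0.037 on the log2 scale (SE; adjusted p = 6.26e-04, limma) and Lyz2 rose by 0.43 ± 0.030 (SE; adjusted p = 2.07e-05, limma). Of all 11030 genes tested at 24 h, 20.9% passed the test as higher and 45.1% as lower, 66.0% in all, and the median gene was at -0.23. Median-of-ratios scaling put Lyz1 at 0.52 and Lyz2 at 0.68, among 3450 genes higher and 3415 lower, beside 2300 and 4977 as listed.

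The direction at 24 h was opposite to that at 12 h in WT cells. The LPS change at 24 h minus that at 12 h was 1.34 for Lyz1 and 1.19 for Lyz2 on the log2 scale. The 12 h and 24 h libraries are separate experiments with separate extraction dates, so time and experiment cannot be told apart, and this difference was not tested. The resting levels also differed between them. Lyz2 averaged 7216 ± 147 TPM with PBS at 24 h and 13363 ± 55.5 TPM with PBS at 12 h, whereas Lyz1 averaged 3943 ± 129 TPM with PBS at 24 h and 3159 ± 45.6 TPM with PBS at 12 h (SD, n = 2 each). The neutrophil gene S100a8, which encodes a calcium-binding alarmin, averaged 7.65 TPM with LPS at 24 h and 899.8 TPM with LPS at 12 h in WT cells. Csf3r, the other neutrophil marker tested, went the other way, at 7.04 TPM with LPS at 24 h and 1.40 TPM with LPS at 12 h.

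CTM on top of LPS went with a further small step up in both paralogs. Lyz1 stood at 5441 and 5459 TPM with LPS plus CTM, against 4647 and 4818 TPM with LPS alone. Lyz2 stood at 11086 and 11108 TPM with LPS plus CTM, against 9682 and 9701 TPM with LPS alone. The groups did not overlap for either gene. Lyz1 rose by 0.20 ± 0.037 on the log2 scale (SE; adjusted p = 8.53e-03, limma) and Lyz2 rose by 0.20 ± 0.030 (SE; adjusted p = 4.51e-03, limma), where 25.6% of all genes passed the test, 16.1% as higher and 9.45% as lower. Both calls depend on the scale: median-of-ratios scaling left 0.12 for Lyz1 (limma adjusted p = 0.182) and 0.11 for Lyz2 (limma adjusted p = 0.165), with 1265 genes higher and 1551 lower, beside 1781 and 1042 as listed. The Lyz1 call also ended when either LPS plus CTM library was left out, with a change of 0.20 to 0.21 (limma adjusted p = 0.056 and 0.065).

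Set against PBS, LPS plus CTM gave the largest rise in the 24 h experiment. Lyz1 rose by 0.47 ± 0.037 (SE; adjusted p = 7.65e-05, limma), to 138% of its mean with PBS. Lyz2 rose by 0.62 ± 0.030 (SE; adjusted p = 7.35e-06, limma), to 154% of its mean with PBS. In this contrast 52.9% of all genes passed the test, 17.4% as higher and 35.5% as lower, or 1922 and 3917 genes, beside 2813 and 2577 after median-of-ratios scaling. Both contrasts with CTM and the LPS contrast share libraries, so their values are not independent.

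**Figure D3:**
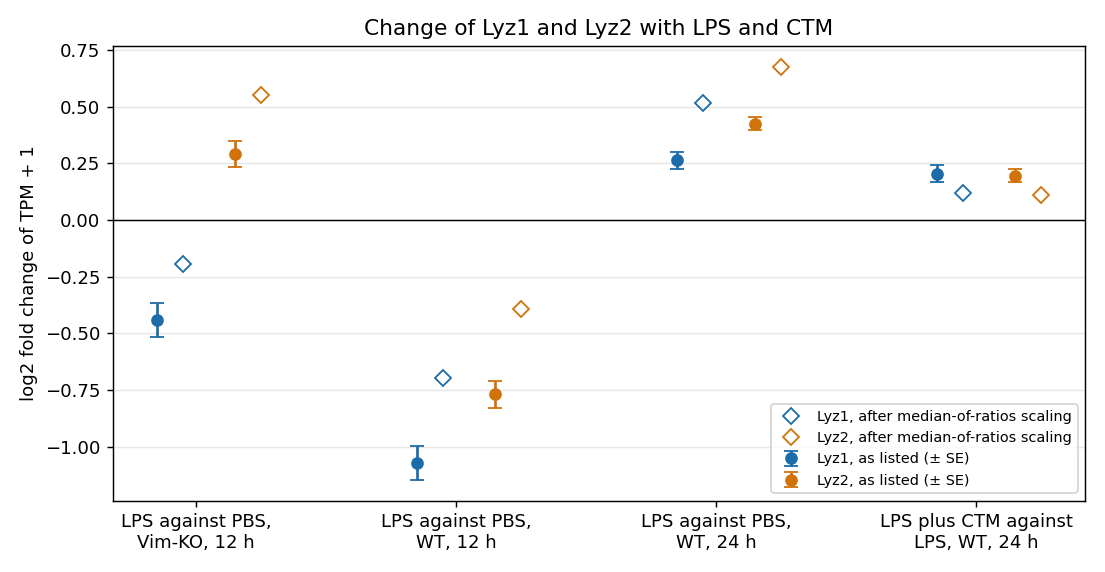
Log2 fold change of Lyz1 (blue) and Lyz2 (orange) in TPM + 1 for 4 contrasts, with filled points and SE bars for the values as listed and open diamonds for the values after median-of-ratios scaling. Both genes are below 0 in WT cells at 12 h and above 0 at 24 h, and in Vim-KO cells at 12 h Lyz1 is at -0.44 and Lyz2 at 0.29.

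The order of the groups by level differs between the paralogs. At 12 h Lyz1 was lowest in Vim-KO with LPS (12.2 ± 0.024 TPM), then Vim-KO with PBS (16.96 ± 1.86 TPM), WT with LPS (1501 ± 6.10 TPM) and WT with PBS (3159 ± 45.6 TPM; SD, n = 2 each). Lyz2 was lowest in Vim-KO with PBS (5594 ± 155 TPM), then Vim-KO with LPS (6848 ± 8.77 TPM), WT with LPS (7841 ± 214 TPM) and WT with PBS (13363 ± 55.5 TPM; SD, n = 2 each). No 2 neighbours in either order overlapped, but the steps between genotypes belong to the contrast that chose the pair. At 24 h both genes had the order PBS, LPS and LPS plus CTM, again without overlap. Separation of 2 libraries from 2 is frequent by chance, and its share over all genes was not counted.

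Genes next to the pair did not share the size of the Lyz1 difference. Within 1 Mb of the pair 63 other genes are annotated, 23 of them protein coding, and 34 are listed. Of these, 11 reached the mean of 1 TPM needed for testing. The nearest on either side are Yeats4, a chromatin reader gene 70.5 kb from Lyz1 towards lower coordinates, and Cpsf6, a gene for mRNA 3′ end processing 72.0 kb on the other side, measured between midpoints. With PBS, Yeats4 averaged 56.9 ± 2.69 TPM in Vim-KO cells and 54.9 ± 1.47 TPM in WT cells, and Cpsf6 averaged 129.0 ± 4.43 TPM in Vim-KO cells and 137.6 ± 2.28 TPM in WT cells (SD, n = 2 each). Their differences of 0.05 (adjusted p = 0.630, limma) and -0.09 (adjusted p = 0.303, limma) did not pass the test.

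Farther out, 4 of the 11 neighbours passed the test with PBS, beside 43.0% of all genes. Mdm2, which encodes the ubiquitin ligase of p53, averaged 72.4 ± 0.77 TPM in Vim-KO cells and 178 ± 6.08 TPM in WT cells (SD, n = 2 each) and was at -1.29 (adjusted p = 2.60e-06, limma), about the same as Lyz2. Mdm1, a centriole protein gene, was at -0.76 and Rap1b, a small GTPase gene, at -0.60. Cct2, a chaperonin subunit gene, was at 0.23. The other 7 did not pass, and the median over the 11 was -0.09, beside -0.05 over all genes tested. With LPS, Cct2, Mdm2 and Yeats4 were higher in Vim-KO cells (0.48, 0.46 and 0.26) and Mdm1 and Rap1b lower (-1.46 and -0.61), 5 of 11 past the threshold, beside 44.7% of all genes. The difference of Mdm2 had the opposite sign with PBS and with LPS. Under median-of-ratios scaling with LPS, 2 of the 11 were higher and 3 lower.

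**Figure D4:**
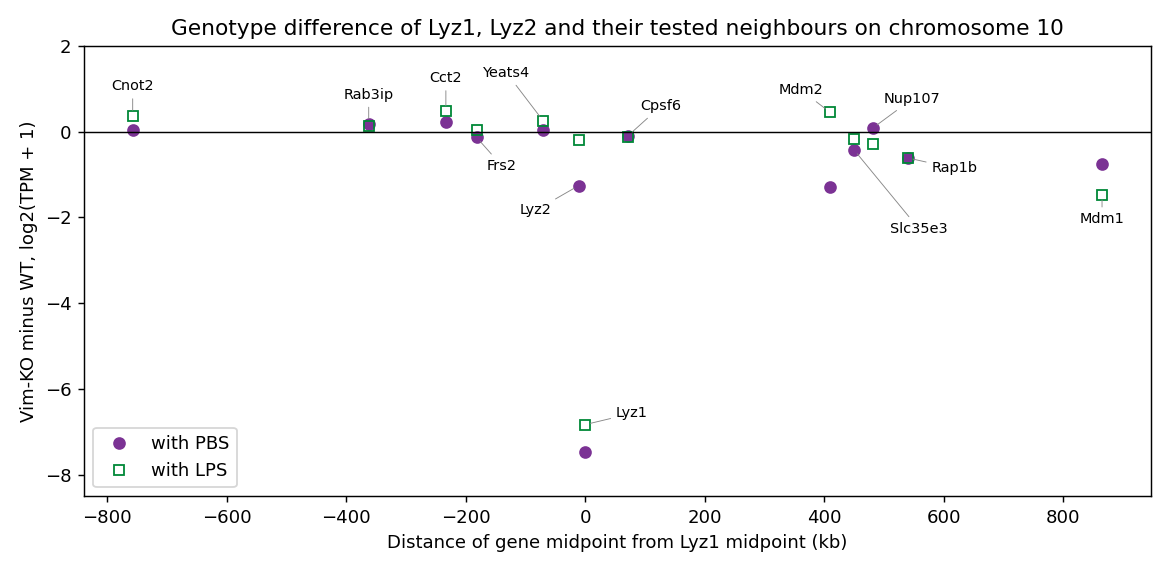
Vim-KO minus WT difference in log2(TPM + 1) for Lyz1, Lyz2 and the 11 tested neighbours within 1 Mb, against the distance of each gene's midpoint from that of Lyz1 in kb, with filled circles for PBS and open squares for LPS. Lyz1 lies at -7.46 and -6.83, while the neighbours on both sides lie between -1.46 and 0.48.

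Many genes listed for peptidoglycan sensing and transport were also lower in Vim-KO cells with PBS. That list, called peptidoglycan genes below, also holds Tlr2 and the inflammasome genes Nlrp3, Nlrc4, Naip2 and Naip5. Of its 10 tested genes, 6 fell and none rose, with a median of -0.56. Beside this, 25.4% of all genes were lower and 17.7% higher, with a median of -0.05. Tlr2, Nlrc4 and Naip5 were among those that fell. Tlr2, a receptor for bacterial lipoproteins, averaged 69.2 ± 0.84 TPM in Vim-KO cells and 164 ± 9.64 TPM in WT cells, a difference of -1.23 (adjusted p = 1.82e-05, limma). Nod2, the sensor of muramyl dipeptide, averaged 0.93 ± 0.0033 TPM in Vim-KO cells and 2.35 ± 0.14 TPM in WT cells, a difference of -0.79 (adjusted p = 3.90e-03, limma; SD, n = 2 each). Nlrc4, the adaptor of the NAIP inflammasome, was at -1.51. With LPS 3 of the 10 fell and 2 rose, with a median of -0.22, beside the 20.6% lower and 24.1% higher of all genes.

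Of 11 tested granule and antimicrobial genes, 7 fell and none rose with PBS, with a median of -1.07, beside the same 25.4% lower and 17.7% higher of all genes. Wfdc17, a secreted WAP-domain protein of macrophages, averaged 2.98 ± 0.68 TPM in Vim-KO cells and 22.2 ± 0.61 TPM in WT cells (SD, n = 2 each; difference -2.55). Slc11a1, the metal transporter of phagosomes, averaged 49.3 ± 1.27 TPM in Vim-KO cells and 149.7 ± 9.39 TPM in WT cells (SD, n = 2 each; difference -1.58). With LPS 7 fell and 2 rose, beside 20.6% of all genes lower and 24.1% higher. S100a8 was at -6.01 and Slpi, a secreted protease inhibitor, at -3.04. The 12 neutrophil markers, which include S100a8, summed to 14.6 to 14.8 TPM in Vim-KO cells with LPS and 897 to 913 TPM in WT cells with LPS, while Ly6g, Ngp, Ltf, Elane and Retnlg were at 0 in both. Their part in the lysozyme values was not tested.

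Of 18 tested lysosome genes, 13 fell and 1 rose with PBS, with a median of -0.64, beside 25.4% of all genes lower and 17.7% higher. Grn, the gene of the lysosomal protein progranulin, averaged 243.9 ± 1.38 TPM in Vim-KO cells and 679 ± 32.1 TPM in WT cells (SD, n = 2 each; difference -1.47). The riser was Ctsh, a lysosomal cysteine protease, which averaged 622 ± 24.3 TPM in Vim-KO cells and 70.5 ± 5.48 TPM in WT cells (SD, n = 2 each; difference 3.12). With LPS 12 fell and 2 rose, beside 20.6% lower and 24.1% higher. Among 14 tested myeloid transcription factors, 5 fell and 3 rose with PBS, shares not far from those of all genes. Klf4, a zinc-finger factor of monocytes, was at -2.61 and Bhlhe40, a basic helix-loop-helix repressor, at 1.19.

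Of 16 tested macrophage markers, 12 fell and none rose in Vim-KO cells with PBS, with a median of -0.54, beside 25.4% of all genes lower and 17.7% higher. With LPS 11 fell and 2 rose, beside 20.6% lower and 24.1% higher. Their summed level was 7140 to 7455 TPM in Vim-KO cells with PBS and 9185 to 9506 TPM in WT cells with PBS. With LPS it was 7655 to 8640 TPM in Vim-KO cells and 10305 to 11106 TPM in WT cells. Mertk was the only marker at 0 in both libraries of a group, in Vim-KO cells with LPS and in WT cells with LPS. Their part in the lysozyme difference was not tested.

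With LPS the lists differed in direction. In WT cells at 12 h, where both paralogs fell, 9 of 11 granule and antimicrobial genes rose and 1 fell, beside 17.8% of all genes higher and 53.1% lower. Lcn2, an iron-siderophore binding protein, averaged 3566 ± 350 TPM with LPS and 2.73 ± 0.58 TPM with PBS (SD, n = 2 each; log2 change 9.91, adjusted p = 4.96e-09, limma). Of 10 peptidoglycan genes, 5 rose and 3 fell. Slc15a3, an endolysosomal transporter of peptides and muramyl dipeptide, averaged 977 ± 109 TPM with LPS and 58.9 ± 1.42 TPM with PBS (SD, n = 2 each; log2 change 4.02). Of 18 lysosome genes, 13 fell and 5 rose. In Vim-KO cells with LPS 9 of 11 granule genes rose and none fell, 6 of 10 peptidoglycan genes rose and 1 fell, and 3 of 18 lysosome genes rose and 12 fell, beside 20.5% of all genes higher and 45.8% lower.

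At 24 h, where both paralogs rose with LPS, 9 of 10 granule and antimicrobial genes rose and 1 fell, and 6 of 11 peptidoglycan genes rose and none fell, beside 20.9% of all genes higher and 45.1% lower. Of 19 lysosome genes 8 rose and 9 fell, the lower share near that of all genes, and 10 rose and 5 fell after median-of-ratios scaling. With LPS plus CTM against LPS alone, no granule gene rose and 6 of 10 fell, while 1 of 11 peptidoglycan genes rose and 4 fell, beside 16.1% of all genes higher and 9.45% lower. Their medians were -0.51 and -0.32, beside 0.07 over all genes and 0.20 for each of the lysozyme paralogs.

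The genes most like each paralog across the cell line were found by Pearson correlation of log2(TPM + 1), over the 8 libraries at 12 h and over the 6 libraries at 24 h, ranked by the lower of both values among 9137 genes. Libraries of a group are near copies in these values, so the points are in effect 4 and 3 groups. For Lyz1 the first was Pcdhgc3, a protocadherin gene (r = 0.977 at 12 h and 0.979 at 24 h), followed by Bdh1, Plcb2, Ncf4 and Htatip2. The r of Lyz1 at 12 h includes the Vim-KO and WT difference that chose the pair, so nothing is read from its height. In WT cells at 12 h Bdh1 averaged 38.1 TPM with LPS and 25.0 TPM with PBS, and Ncf4 272 and 251 TPM, while Lyz1 fell. Pcdhgc3, Plcb2 and Htatip2 were lower with LPS there. Plcb2, a phospholipase C gene, averaged 1.31 TPM in Vim-KO cells and 26.7 TPM in WT cells with PBS. For Lyz2 the first was Pde8b, a cyclic AMP phosphodiesterase gene (r = 0.944 and 0.997), followed by Zfp35, Arntl, Atrn and D6Wsu163e. Pde8b averaged 8.52 TPM in Vim-KO cells and 23.2 TPM in WT cells with PBS. The paralogs stood 40th and 46th in each other's orders, with r = 0.827 at 12 h and 0.986 at 24 h.

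In liver only Lyz2 could be read, from 1 library per group, so differences there have no replicate check and no test. It stood far below the cell line, at 9.78 to 40.14 TPM. Bulk liver holds macrophages and neutrophils among many hepatocytes, and fewer cells of a type and less RNA per cell cannot be told apart. With WT LPS it stood at 9.78 TPM, against 27.16 TPM with WT PBS, a difference of -1.39 in log2(TPM + 1). The liver genes were listed for being at least 2-fold apart in this pair, 66.9% of them differ by at least 1 on this scale, 46.3% as lower, and nothing is read from it. Listed markers of Kupffer cells, the resident liver macrophages, summed to 58.2 TPM with LPS and 121.5 TPM with PBS. Of these Marco was higher with LPS, at 13.55 TPM, against 2.5 TPM with PBS, and the others were lower. Neutrophil markers summed to 88.3 TPM with LPS and 1.76 TPM with PBS.

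The other WT liver with LPS, without macrophage depletion and extracted on another date, had 40.14 TPM, against 27.16 TPM in the PBS liver, a difference of 0.55 in a pair where 43.2% of genes differ by at least 1. Neutrophil markers summed to 125.8 TPM in this LPS liver and 1.76 TPM in the PBS liver. Monocyte markers summed to 88.7 TPM with LPS and 6.93 TPM with PBS. Kupffer cell markers summed to 127.6 TPM with LPS and 121.5 TPM with PBS, but did not move together. Marco was at 26.58 TPM with LPS and 2.5 TPM with PBS, and Adgre1 at 4.9 TPM with LPS and 3.53 TPM with PBS. The other listed Kupffer cell markers were lower with LPS, among them Clec4f at 12.3 TPM with LPS and 16.99 TPM with PBS. For Lyz2 the WT livers with LPS therefore lay on both sides of the PBS liver, and extraction date, any difference in dose and mouse cannot be told apart here. With LPS plus CTM, Lyz2 stood at 14.58 TPM, against 9.78 TPM with LPS alone on the same date, a difference of 0.53, in a pair where 1.59% of genes differ by at least 1. Kupffer cell markers summed to 84.6 TPM with LPS plus CTM and 58.2 TPM with LPS. Marco, 1 of them, was at 26.12 TPM with LPS plus CTM and 13.55 TPM with LPS. Neutrophil markers summed to 119.9 TPM with LPS plus CTM and 88.3 TPM with LPS. Monocyte markers summed to 68.5 TPM with LPS plus CTM and 48.6 TPM with LPS. General macrophage markers summed to 453.3 TPM with LPS plus CTM and 498.6 TPM with LPS. Cd14 made up most of that sum, at 336.29 TPM with LPS plus CTM and 374.7 TPM with LPS. Fcer1g and Ptprc were also lower with LPS plus CTM, and the other listed macrophage markers were higher. The part of all these markers in the Lyz2 differences was not tested.

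Liver macrophage depletion went with less Lyz2. It stood at 13.91 TPM with LPS after depletion, against 40.14 TPM with LPS and no depletion, a difference of -1.46. In this pair 8.83% of listed genes differ by at least 1, 6.25% as lower, and Lyz2 held place 134 from the lowest of 5298. The 8 listed Kupffer cell markers had a summed level of 17.02 TPM after depletion and 127.6 TPM without it. None of the 8 was at 0: Clec4f was at 0.21 TPM after depletion and 12.3 TPM without it, and Vsig4 at 0.12 TPM after depletion and 6.42 TPM without it. The 8 listed neutrophil markers summed to 242.8 TPM after depletion and 125.8 TPM without it, but did not move together. Csf3r was at 2.87 TPM after depletion and 9.21 TPM without it, and Cxcr2 at 0.37 and 1.34 TPM, while the others were higher after depletion. The 5 listed monocyte markers summed to 66.9 TPM after depletion and 88.7 TPM without it. Chil3 and Ifitm6 were higher after depletion, and the other listed monocyte markers were lower. The 11 listed general macrophage markers summed to 593.8 TPM after depletion and 479.2 TPM without it. Of these only Cd14 was higher after depletion, at 540.41 TPM, against 290.71 TPM without it. The others were lower, among them Fcer1g at 38.15 TPM after depletion and 152.11 TPM without it, though Mrc1 and Mertk barely moved. The part of all these markers in the Lyz2 difference was not tested.

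Livers of TG2-KO mice, a knockout of transglutaminase 2, were extracted on a date of their own. They had Lyz2 at 21.48 TPM with LPS, against 28.02 TPM with PBS, a difference of -0.37 where 31.9% of genes differ by at least 1. With LPS they stood 1.06 above the WT liver of the same dose (21.48 TPM in TG2-KO, 9.78 TPM in WT), in a pair where 6.30% of genes differ by at least 1, 4.27% as higher. The direction turns with the WT liver chosen, since the other WT liver with LPS, whose dose is not given, had 40.14 TPM, above the TG2-KO liver. With PBS the genotypes stood 0.04 apart (28.02 TPM in TG2-KO, 27.16 TPM in WT), where 7.70% of genes differ by at least 1. Genotype and extraction date cannot be told apart in these pairs. The Kupffer cell markers summed to 67.1 TPM in the TG2-KO liver and 58.2 TPM in the WT liver with LPS. Clec4f, Marco, Folr2 and Adgre1 were lower in the TG2-KO liver, and the other listed Kupffer cell markers were higher. The neutrophil markers summed to 159.8 TPM in the TG2-KO liver and 88.3 TPM in the WT liver with LPS, with only Mmp8 lower in TG2-KO. They already differed with PBS, at 30.4 TPM in the TG2-KO liver and 1.76 TPM in the WT liver. Kupffer cell markers with PBS summed to 91.1 TPM in the TG2-KO liver and 121.5 TPM in the WT liver, with only Marco higher in TG2-KO. The part of all these markers in the Lyz2 differences between the genotypes was not tested.

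**Figure D5:**
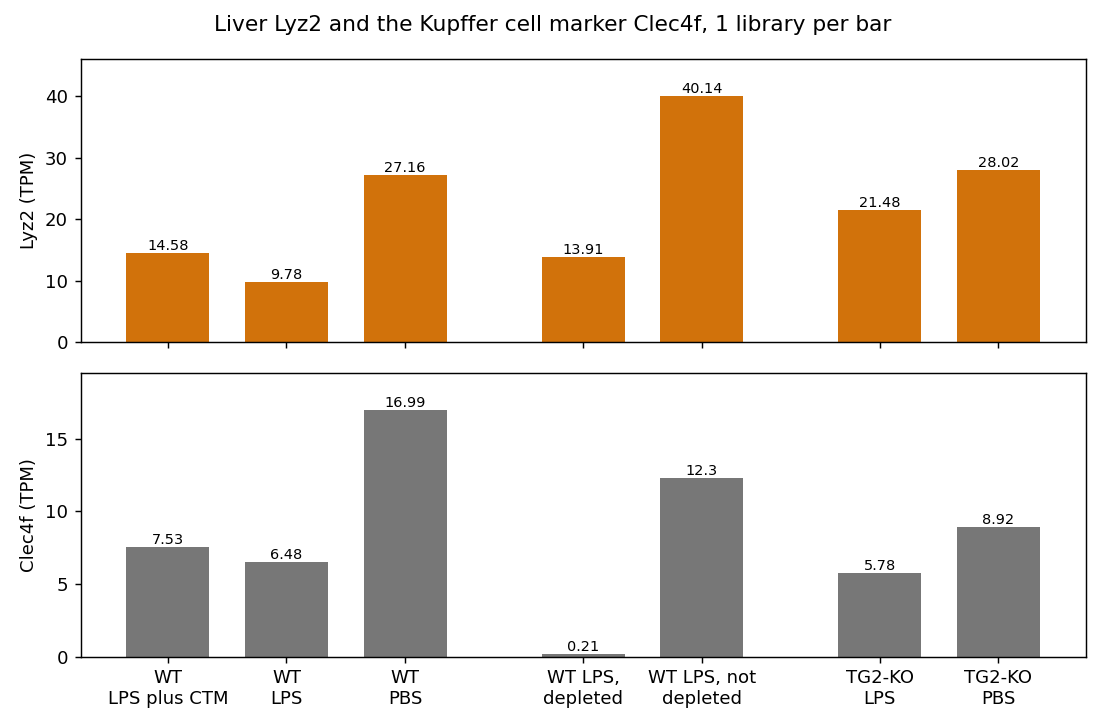
TPM of Lyz2 (top) and of the Kupffer cell marker Clec4f (bottom) in the 7 liver libraries, 1 per bar, with the value above each bar. Lyz2 is 13.91 TPM after macrophage depletion and 40.14 TPM without it, and Clec4f is 0.21 TPM after depletion and 12.3 TPM without it.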

How the data were processed

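The authors deposited TPM per gene symbol. The submitters' processing notes name Salmon and the builds GRCm38 and mm10. The Salmon version, the annotation and the handling of reads shared by paralogs are not given in the sources used here. Libraries were made with a TruSeq Stranded mRNA kit, per the labels' protocols. TPM sum to 993386 to 999191 in the cell line libraries. The liver values, rounded to 2 decimals, hold the genes at least 2-fold apart between WT LPS and PBS. At 24 h the LPS and CTM columns carry the numbers 2 and 3 where the labels have 1 and 2, so they were assigned to a group only.

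Each experiment was fitted with limma 3.58.1 (R 4.3.3) on log2(TPM + 1), in 1 model of all its groups with a mean-variance trend. Genes whose mean was under 1 TPM were left out, Benjamini-Hochberg adjustment covered every gene fitted, and 0.05 was the threshold. Fold changes on this scale understate changes of low genes. "Rose" and "fell" of a list member mean past this threshold. The model was checked on simulated data. The alternatives changed the pseudocount (0.1), the filter (none, or 5 TPM), the scaling (median-of-ratios), the trend, the libraries fitted, and added a replicate block. Shares were tested by exact permutation. Positions and coding sequences come from GENCODE M21 (GRCm38) and upstream sequences from RefSeq (GRCm38.p6), where both paralogs matched by symbol. Protein sequences were not used here.

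The members, lists, motifs and tests were chosen with earlier results of these data known. Named list genes are up to 4 per list and contrast, those past the threshold with the largest change, and named neighbours are those tested within 1 Mb. Some genes this rule names are not reported here. The comparisons of S100a8 and Csf3r between 24 h and 12 h were chosen after their values were seen. In a cell line library, lymphocyte markers summed to at most 0.28 TPM, hepatocyte markers to 8.29 TPM, and endothelial and fibroblast markers to 3.13 TPM.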

Additional observations from a re-analysis of the deposited data

Results flagged for a closer look

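A test of the genotype difference in LPS change uses the same 12 h Vim-KO and WT values that chose the pair. For Lyz1 it rests on a few TPM in Vim-KO cells, whose origin was not tested. By this test the LPS change differed between Vim-KO and WT cells at 12 h for both paralogs. It was 0.63 higher on the log2 scale in Vim-KO cells for Lyz1 and 1.06 higher for Lyz2, and passed the limma threshold under each of the 14 alternatives run for it.

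The LPS change in WT cells had opposite signs in all libraries at 24 h and at 12 h. The difference, 24 h minus 12 h, was 1.34 for Lyz1 and 1.19 for Lyz2 on the log2 scale and was not tested, since each time is an experiment of its own.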

How the results depend on the processing

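The calls of both paralogs for LPS against PBS, LPS plus CTM against PBS and the genotype difference in LPS change held under all alternatives run, except Lyz2 with LPS in Vim-KO cells without a filter (0.29, limma adjusted p = 0.067). LPS plus CTM against LPS lost both calls without a filter (0.20 for each gene), with median-of-ratios scaling (0.12 for Lyz1, 0.11 for Lyz2) and without the trend (0.20 for each). Without 1 library these changes ranged over 0.18 to 0.23 and 0.19 to 0.20, and the count of all genes called over 1153 (without the LPS plus CTM library numbered 3) to 2347, beside 2823. The count for the genotype difference in LPS change ranged over 1203 to 2656, beside 2292, and that for Vim-KO against WT with PBS over 3186 to 3427, beside 4782, lowest in both without the first WT PBS library. The Lyz1 share, LPS plus CTM minus LPS, ranged over -0.25 to 0.50 points and turned its sign without 1 LPS library. Vim-KO minus WT moved with median-of-ratios scaling to -1.21 (Lyz2, PBS), -6.91 (Lyz1, LPS) and -0.27 (Lyz2, LPS), and with a pseudocount of 0.1 to -6.93 (Lyz1, LPS). Liver Lyz2, which has no replicate spread, moved with a pseudocount of 0.1 to -1.46 (WT LPS against PBS), 0.57 (CTM), -1.52 (depletion), -0.38 (TG2-KO LPS against PBS), 1.13 (TG2-KO against WT with LPS) and 0.56 (not depleted against PBS). The cause of these shifts was not tested.

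Replicate numbers are shared between groups only as numbers. Deviations of same-numbered libraries correlated at -0.33 to 0.12 at 12 h, and at -0.05 between LPS plus CTM and LPS at 24 h. Pairing was therefore not assumed. With the number as a block, run at 12 h and for CTM on LPS, no tested call of either paralog changed, and CTM on LPS called 2347 genes. It was not run for the contrasts with PBS at 24 h, whose columns share 1 number at most. Depth is unknown, so counting error could not be given.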
